A study of Mus musculus with 24 samples.

Results

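Aqp1, Aqp3, Aqp4 and Aqp5 are 4 of the mouse aquaporin genes, and they were taken here by name. Estimated counts and transcripts per 1000000 (TPM) of their transcripts were summed per gene in each of 24 libraries, so the set is 4 of 35855 genes listed, and all 4 were among the 12211 genes that passed the filter on low counts. The libraries are bulk RNA sequencing of tracheal epithelial cells from wild-type female mice that had received no treatment, of strain C57BL/6 by the title of the series. The labels give no transgene, mutation or treatment for any sample. Each library was made from 1000 sorted cells with the SmartSeq2 protocol for cell populations. The labels name 3 sorted subsets with 8 libraries each: cells with high BCAM, the basal cell adhesion molecule, cells with low BCAM, and differentiated epithelial cells, called BCAM high, BCAM low and differentiated here. In every subset libraries 1 to 5 belong to batch 1 and libraries 6 to 8 to batch 2, and the sources used here do not say what a batch is. Nor do the labels say whether libraries came from separate animals, so p-values measure the spread between these libraries, which may in part be technical.

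Aquaporins are membrane channels that work as tetramers in which each subunit forms its own pore. Aqp1, Aqp4 and Aqp5 pass water, whereas Aqp3 is an aquaglyceroporin that passes glycerol and other small uncharged solutes as well. In the airway, Aqp3 is known from basal cells and Aqp5 from the apical membrane of secretory and submucosal gland cells. Aqp4 is known from the basolateral membrane of airway epithelial cells and, in the brain, from astrocyte endfeet, where the dystrophin complex anchors it. Aqp1 is the water channel of red cells and of microvascular endothelium.

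In GENCODE M21 (build GRCm38), Aqp3 (ENSMUSG00000028435) lies at chr4:41092722-41098183 on the minus strand and Aqp5 (ENSMUSG00000044217) at chr15:99590782-99594829 on the plus strand. Aqp1 (ENSMUSG00000004655) lies at chr6:55336432-55348555 on the plus strand. The start regions of Aqp3 and Aqp5 are shown because these 2 genes held most of the aquaporin RNA and were highest in different subsets. Both sequences are from RefSeq (GRCm38.p6), in the direction of the gene, with matches to the motifs searched in capitals. The Aqp3 sequence is the 250 bases before the RefSeq start, chr4:41098184-41098433, minus strand. The Aqp5 sequence is a stretch of 30 bases, chr15:99590937-99590966, plus strand.
Aqp3: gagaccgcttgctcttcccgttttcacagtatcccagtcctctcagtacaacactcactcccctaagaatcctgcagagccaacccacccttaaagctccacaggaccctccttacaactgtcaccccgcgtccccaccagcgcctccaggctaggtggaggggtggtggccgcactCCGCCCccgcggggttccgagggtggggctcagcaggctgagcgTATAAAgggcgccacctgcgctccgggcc
Aqp5: gggtCACGTGgcccGGGCGGgtccgccgct

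Short motifs were searched on both strands of windows from 250 bases before to 50 after each RefSeq start. The TATA box was spelled TATAAA and the GC box was spelled GGGCGG. The E-box was spelled CACGTG, which reads the same on both strands. The AP-1 site was spelled TGACTCA, and the CCAAT box by its name. The Aqp3 window held a TATA box that begins 29 bases before the start and a GC box on the opposite strand that begins 73 bases before it. Aqp5 had no TATA box in its window, which held an E-box beginning 87 bases before the start and 3 GC boxes, beginning 77 and 34 bases before it and 38 bases after it. None of these matches overlapped another. Of the 32851 windows in the RefSeq table, 13.6% held the TATA box, 35.7% the GC box, 7.15% the E-box, 5.2% the AP-1 site and 37.4% the CCAAT box. Guanine and cytosine made up 64% of the Aqp3 window and 79.7% of the Aqp5 window, against a median of 52.7% over all windows. These matches describe letters and were not tested as binding sites. The GENCODE start of the main Aqp3 transcript (Aqp3-201) is at base 41098183 of chromosome 4, directly beside the sequence shown. The most abundant Aqp5 transcripts, Aqp5-204 and Aqp5-206, start at bases 99591151 and 99591234 of chromosome 15, downstream of the RefSeq window.

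Totals ran from 1824619 to 4440072 estimated counts per library. The 10 basal markers summed to 4051 to 6422 TPM in BCAM high libraries, 3033 to 4574 TPM in BCAM low libraries and 154 to 1270 TPM in differentiated ones, with every marker detected in each subset. The differentiated libraries were not uniform. The summed TPM of 8 secretory markers was 320490 to 412074 in libraries 1 to 5, but 23967 in library 6, 21276 in library 7 and 156472 in library 8. Their 8 thyroid markers summed to 3413 to 28564 TPM, highest in library 7, whereas BCAM high libraries had 9.29 to 429 TPM and BCAM low libraries 13.9 to 78.9 TPM. The summed parathyroid markers reached 20718 TPM in differentiated library 2. The part of these cells in the aquaporin differences was not tested. Values without differentiated libraries 6 and 7 are given for some of the comparisons between subsets. The batch differences and interactions were not fitted without both of these libraries.

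The order of the subsets by mean aquaporin level differed between genes, and not every step of it passed a test. Levels are given in counts per 1000000 of the library total scaled by TMM factors (CPM). By mean CPM, Aqp3 and Aqp4 were highest in BCAM high and lowest in differentiated cells, whereas Aqp5 was lowest in BCAM high. With edgeR's quasi-likelihood test and Benjamini-Hochberg adjustment over all 12211 genes, 1 of the 4 genes was called between BCAM high and BCAM low, where 7.02% of all tested genes were called. Between BCAM high and differentiated cells 3 of the 4 were called (41.3% of all genes), and between BCAM low and differentiated cells 2 of the 4 (33.5% of all genes). The 3 comparisons share libraries, so they are not independent of each other. In bulk samples a change in the number of cells that express a gene and a change in RNA per cell cannot be told apart.

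**Figure D1:**
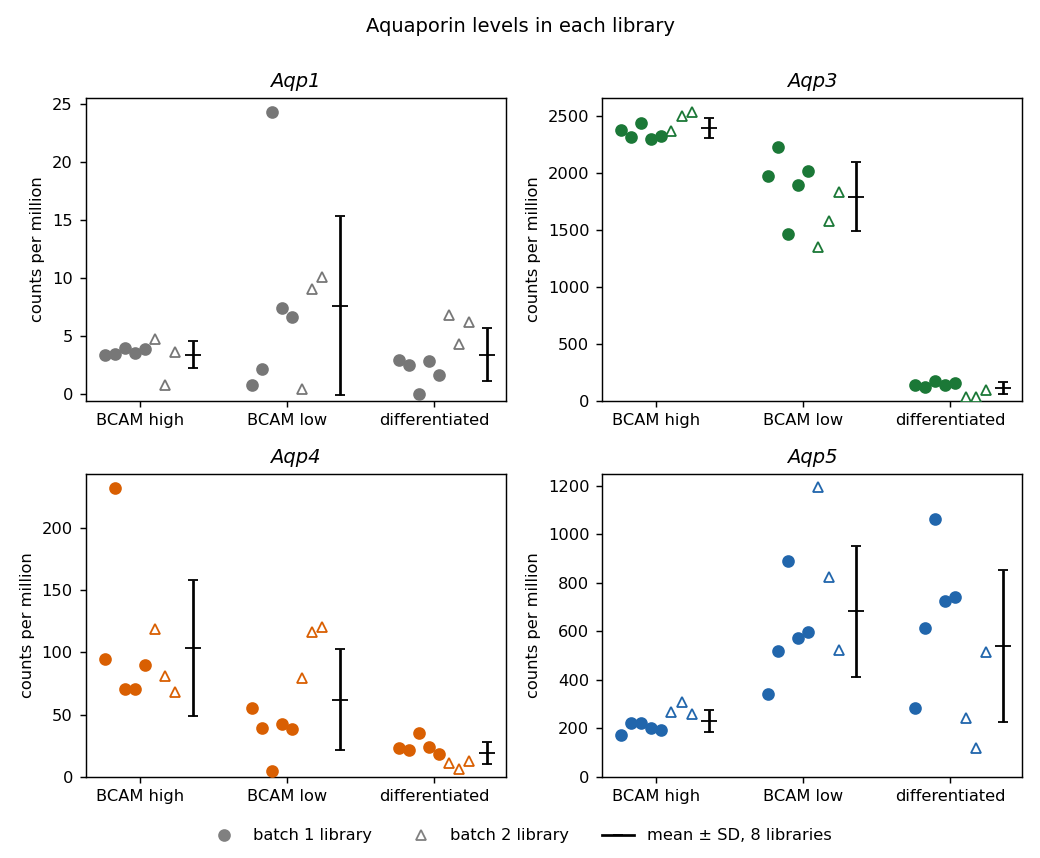
Level of each aquaporin in every library, in CPM on linear axes that differ between panels. Filled circles are batch 1 libraries, open triangles batch 2 libraries, and the bar beside each group is the mean ± SD of 8 libraries. Aqp3 sits between 2294 and 2528 in BCAM high and between 29.0 and 171 in differentiated libraries, while the mean of Aqp5 is lowest in BCAM high.

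Aqp3 was the most abundant of the 4 genes in both BCAM subsets. By mean TPM it ranked 78 among the 26334 genes with any TPM in BCAM high, 97 of 27614 in BCAM low and 1530 of 24213 in differentiated cells. In BCAM high the Aqp3 libraries ran from 2294 CPM through a median of 2368 to 2528 CPM, a narrow spread (mean 2390 ± 86.9 CPM, SD, n = 8). BCAM low gave 1349, 1862 and 2225 CPM as lowest, median and highest value (mean 1790 ± 300.2 CPM, SD, n = 8). Differentiated libraries gave 29.0, 130 and 171 CPM (mean 110 ± 53.7 CPM, SD, n = 8). No library of either BCAM subset overlapped with a differentiated one.

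Aqp3 was 23.4-fold higher in BCAM high than in differentiated cells, a log2 fold change of 4.55 with a standard error (SE) of 0.26 (edgeR adjusted p = 1.33e-12). The difference of BCAM low from differentiated cells was 17.2-fold, log2 4.11 (SE 0.25, edgeR adjusted p = 1e-11). Without differentiated libraries 6 and 7 these log2 differences were 4.19 and 3.76. Groups that do not overlap in CPM were found for 13.4% of all tested genes in the first of these comparisons and for 7.27% in the second. Between BCAM high and BCAM low, all 8 BCAM high libraries lay above the highest BCAM low library, which was the case, in either direction, for 1.5% of tested genes. The fitted Aqp3 difference was log2 0.45 (SE 0.22) and did not pass the threshold (edgeR adjusted p = 0.249). It passed when these 2 subsets were fitted without the differentiated libraries (log2 0.41, edgeR adjusted p = 0.00264) and when differentiated libraries 6 and 7 alone were left out (log2 0.43, edgeR adjusted p = 0.00643). On the deposited TPM scale the Aqp3 ranges touched, with 1579 to 2160 TPM in BCAM high and 660 to 1626 TPM in BCAM low.

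**Figure D2:**
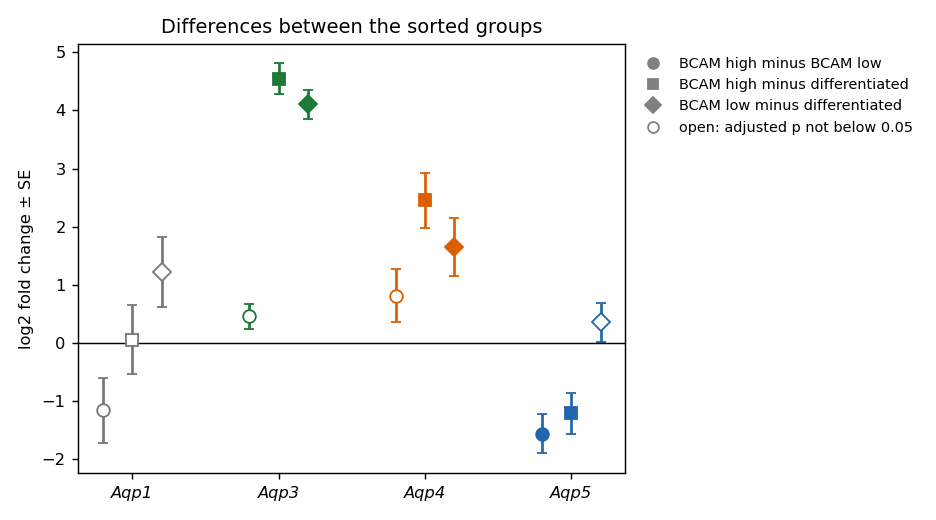
Log2 fold change of each aquaporin in the 3 comparisons, with SE bars, from the fit over 24 libraries with batch as a covariate. Filled symbols passed an adjusted p of 0.05. Aqp3 has the 2 highest points, at 4.55 and 4.11, and Aqp5 lies below 0 in both comparisons that start from BCAM high.

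Aqp5 ran the other way between the BCAM subsets. In BCAM high its libraries gave 171, 221 and 309 CPM as lowest, median and highest value (mean 230 ± 45.5 CPM, SD, n = 8). BCAM low gave 340, 584 and 1194 CPM (mean 682 ± 271 CPM, SD, n = 8), so every BCAM low library was above every BCAM high library. These subsets did not overlap, in either direction, for 1.5% of tested genes. Aqp5 in differentiated libraries spread from 117 through 563 to 1062 CPM and overlapped with both BCAM subsets (mean 537 ± 314 CPM, SD, n = 8). On the TPM scale, too, the Aqp5 ranges met, from 203 to 408 in BCAM high and from 402 to 867 in BCAM low.

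Aqp5 was 2.96-fold lower in BCAM high than in BCAM low, log2 -1.57 (SE 0.34, edgeR adjusted p = 0.00688). Fitted in batch 1 alone this difference was -1.53 (edgeR adjusted p = 0.0104), and in batch 2 alone, with 3 libraries a group, it was -1.60 and did not pass (edgeR adjusted p = 0.195). Against differentiated cells Aqp5 was 2.33-fold lower in BCAM high, log2 -1.22 (SE 0.35, edgeR adjusted p = 0.0073). That difference was -1.62 without differentiated libraries 6 and 7 (edgeR adjusted p = 3.61e-05), -1.76 in batch 1 alone and -0.05 in batch 2 alone. The Aqp5 difference of BCAM low from differentiated cells did not pass, at log2 0.35 (SE 0.34, edgeR adjusted p = 0.47), and was -0.24 in batch 1 alone and -0.06 without differentiated libraries 6 and 7. On log2(TPM + 0.1) in limma, Aqp5 was at -0.15 in BCAM high (adjusted p = 0.637) and 1.04 in BCAM low (adjusted p = 0.00506) against differentiated cells, on a scale where the median of all tested genes was 0.75 and 0.48.

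Markers of submucosal gland cells were set beside Aqp5, and their sum was higher in BCAM low than in BCAM high, as Aqp5 was. Not every marker went this way, as Sox9 had a mean of 6.61 CPM in BCAM high and 3.64 CPM in BCAM low. The summed TPM of the 9 gland markers in the files was 160 to 733 in BCAM high libraries, where Dcpp1 was at 0. BCAM low libraries had 2911 to 11026 and differentiated libraries 6543 to 90211. The differentiated libraries with the lowest Aqp5, numbers 7 and 6, also had the lowest gland sums, 6543 and 9955 TPM, and the lowest secretory sums. In BCAM low, library 6 had both the highest Aqp5 (1194 CPM) and the highest gland sum (11026 TPM), while library 3, second in Aqp5 at 889 CPM, had a gland sum of 4921 TPM. Sums of the 8 secretory markers overlapped, at 36538 to 74560 TPM in BCAM high and 36513 to 118160 TPM in BCAM low. The lowest of these sums was in BCAM low library 4, at 571 CPM of Aqp5. Some other marker sums were higher in BCAM low as well. Suprabasal and hillock markers summed to 526 to 963 TPM in BCAM high and 895 to 2024 TPM in BCAM low. The 10 ciliated markers summed to 80.4 to 394 TPM in BCAM high and 428 to 584 TPM in BCAM low. Immune markers, 6 genes of which Lyz2 is also in the gland list, summed to 49.2 to 310 TPM in BCAM high and 356 to 1507 TPM in BCAM low. Differentiated libraries reached 13106 TPM of them, with the lowest sums in libraries 7 (991 TPM) and 6 (2553 TPM). The order was not kept among differentiated libraries, where library 8 had the highest gland sum, 90211 TPM, at 515 CPM of Aqp5, and library 1 had the next, 64886 TPM, at 284 CPM. The part of any of these cells in the Aqp5 differences was not tested.

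Aqp4 (ENSMUSG00000024411) lies at chr18:15389496-15410982 on the minus strand in GENCODE M21 (GRCm38). By mean TPM its rank among genes was 1434 for BCAM high cells, 2911 for BCAM low cells and 4957 for differentiated cells. BCAM high libraries gave 67.9, 85.6 and 232 CPM of Aqp4 as lowest, median and highest value, and library 2 held the highest (mean 103 ± 54.8 CPM, SD, n = 8). The BCAM low values ran from 4.12 in library 3 through 48.6 to 121 CPM in library 8 (mean 62.0 ± 40.7 CPM, SD, n = 8). Differentiated libraries gave 5.97, 19.8 and 35.4 CPM (mean 18.9 ± 9.17 CPM, SD, n = 8). BCAM high did not overlap with differentiated cells, as was found for 13.4% of all tested genes, and 7 of the 8 BCAM low libraries were above every differentiated one.

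Aqp4 was 5.47-fold higher in BCAM high than in differentiated cells, log2 2.45 (SE 0.48, edgeR adjusted p = 2.92e-04). Without differentiated libraries 6 and 7 this log2 difference was 2.13 (edgeR adjusted p = 0.00256). In BCAM low Aqp4 was 3.12-fold higher than in differentiated cells, log2 1.64 (SE 0.50, edgeR adjusted p = 0.0142). The second difference rested on batch 2: it was 3.43 there, 0.54 in batch 1 alone (edgeR adjusted p = 0.493) and 1.24 without differentiated libraries 6 and 7 (edgeR adjusted p = 0.0833). Between BCAM high and BCAM low the Aqp4 difference in counts was log2 0.81 (SE 0.45) and did not pass (edgeR adjusted p = 0.324). It was 1.65 in batch 1 alone and -0.25 in batch 2 alone, with an interaction of -1.89 (SE 0.71, edgeR adjusted p = 0.272), and with offsets for transcript length it was 1.13 and passed (edgeR adjusted p = 0.0267). In TPM Aqp4 was at 66.2 to 118 in BCAM high and 3.58 to 49.6 in BCAM low. The share of all genes with no overlap in TPM was not counted. On log2(TPM + 0.1) the Aqp4 difference between the BCAM subsets was 1.60 and passed (limma adjusted p = 0.0115). It passed on log2(TPM + 1) as well (1.54, limma adjusted p = 0.00689). With a pseudocount of 0.1 the median of all tested genes was 0.26 in this comparison.

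The transcripts estimated to make up Aqp4 RNA differed in length between the subsets. How far this accounts for the gap between counts and TPM was not tested. Of the Aqp4 transcripts listed, Aqp4-205 (1106 bases), Aqp4-210 (1288 bases) and Aqp4-201 (5054 bases) held most of the TPM. The long Aqp4-201 was at 0 TPM in all 8 differentiated libraries. BCAM high libraries had 1.51 to 27.3 TPM of it and BCAM low libraries 0 to 22.0 TPM. It reached 9.13, 15.7 and 22.0 TPM in the batch 2 libraries of BCAM low and at most 6.32 TPM in those of batch 1. Aqp4-205 made up a median of 64.7% of Aqp4 TPM in BCAM high cells, 32.8% in BCAM low cells and 88.0% in differentiated cells. Its level in BCAM high, 15.5 to 71.6 TPM, was followed by 5.90 to 20.8 TPM in differentiated and 2.69 to 20.7 TPM in BCAM low libraries. Shares of transcripts are estimates from short reads over shared exons, and for the differentiated libraries they rest on 14 to 67 Aqp4 counts each.

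**Figure D3:**
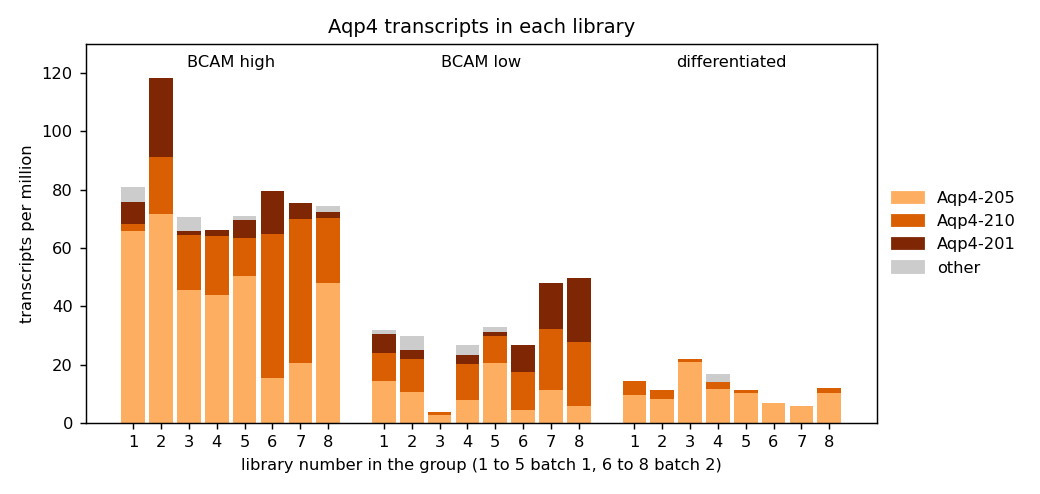
Aqp4 transcripts in every library, in TPM, stacked by transcript, with library numbers 1 to 8 on the x axis within each subset. The tallest bar is BCAM high library 2 at 118, and the dark segment of the long transcript Aqp4-201 is missing in all differentiated libraries.

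Aqp3 and Aqp5 RNA was also split over several transcripts, with less change in median shares between subsets. Aqp3-201 made up a median of 89.4% of Aqp3 TPM in BCAM high cells, 95.7% in BCAM low cells and 94.1% in differentiated cells. The rest was a transcript of 401 bases annotated as a retained intron. It was at 0 to 436 TPM in BCAM high, 0 to 245 TPM in BCAM low and 0 to 37.1 TPM in differentiated libraries. Its share of Aqp3 TPM reached 23.2%, 15.0% and 42.8% in the same order. For Aqp5, the coding transcripts Aqp5-204 and Aqp5-206 held medians of 41.9% and 48.7% in BCAM high cells, 49.5% and 40.1% in BCAM low cells, and 47.9% and 42.4% in differentiated cells. Aqp1 RNA came from a single listed transcript of 2627 bases.

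Aqp1 was close to the detection limit in all subsets, with 2 to 16 estimated counts in a BCAM high library, 1 to 106 in a BCAM low library and 0 to 15 in a differentiated one. BCAM high gave 0.707, 3.54 and 4.71 CPM as lowest, median and highest value. BCAM low gave 0.441, 7.02 and 24.2 CPM, the highest in library 3, and differentiated libraries gave 0, 2.83 and 6.78 CPM. Differentiated library 3 had no Aqp1 count, and 3 counts there would be 1.58 CPM, for counting error only. The subsets overlapped and no Aqp1 difference passed, with log2 -1.17 (SE 0.56, edgeR adjusted p = 0.232) between BCAM high and BCAM low, 0.05 (SE 0.60, edgeR adjusted p = 0.958) between BCAM high and differentiated cells, and 1.22 (SE 0.60, edgeR adjusted p = 0.119) between BCAM low and differentiated cells. The last difference passed in batch 1 alone (2.07, edgeR adjusted p = 0.0279) and without BCAM low library 6 (1.46, edgeR adjusted p = 0.0455).

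Markers of the cells that Aqp1 is known from were set beside it. BCAM low library 3 had the highest sum of 10 endothelial markers, 56.4 TPM, where the other BCAM low libraries had 24.1 to 40.9 TPM, BCAM high ones 29.4 to 44.8 TPM and differentiated libraries 3.71 to 21.2 TPM, with Cldn5 at 0. Of the haemoglobin genes, which mark red cells, Hbb-bs and Hbb-bt were at 0 counts in that library and Hba-a1 and Hba-a2 at 3 counts each. Hbb-bs was highest among BCAM low libraries in library 2, at 1847 TPM, a library with 2.13 CPM of Aqp1. Among the BCAM low libraries, the endothelial markers Vwf (14.3 TPM) and Plvap (1.60 TPM) were highest in library 3. Each of the other endothelial markers was higher in another BCAM low library. Pecam1 was at 14.1 TPM in library 7 and 12.5 TPM in library 3. Whether endothelial cells gave the Aqp1 counts of BCAM low library 3 was not tested.

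The shares of Aqp3 and Aqp5 among the 4 genes kept the subsets apart in all 24 libraries. As a share of the 4 genes' summed TPM, which is scaled for length, Aqp3 took 81.4% to 87.7% of a BCAM high library (mean 83.8% ± 2.02, SD, n = 8), 42.5% to 76.6% of a BCAM low library (62.6% ± 11.5, SD, n = 8) and 8.58% to 20.8% of a differentiated library (12.7% ± 4.25, SD, n = 8). Aqp5 took 8.78% to 15.4%, 21.6% to 55.8% and 73.3% to 87.7% in the same order. Neither share overlapped between any 2 subsets. Aqp3 and Aqp5 made up nearly the whole sum, so their shares are not independent of each other. How often shares of other gene pairs keep the subsets apart was not counted. Aqp4 took 2.85% to 5.61%, 0.235% to 2.61% and 2.12% to 5.67%, and Aqp1 stayed at or below 1.05% in every library. The ratio of Aqp3 to Aqp5 TPM had a median of 6.90 in BCAM high cells, 2.16 in BCAM low cells and 0.129 in differentiated cells. Below 1 among the BCAM libraries it was found in BCAM low library 6, at 0.761. Summed over the 4 genes, BCAM high libraries had 1862 to 2644 TPM, BCAM low libraries 1524 to 2241 TPM and differentiated libraries 144 to 708 TPM. Another aquaporin, Aqp11, is outside this sum. It was at 17.7 TPM in differentiated library 7, where Aqp3 was at 16.05 TPM.

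**Figure D4:**
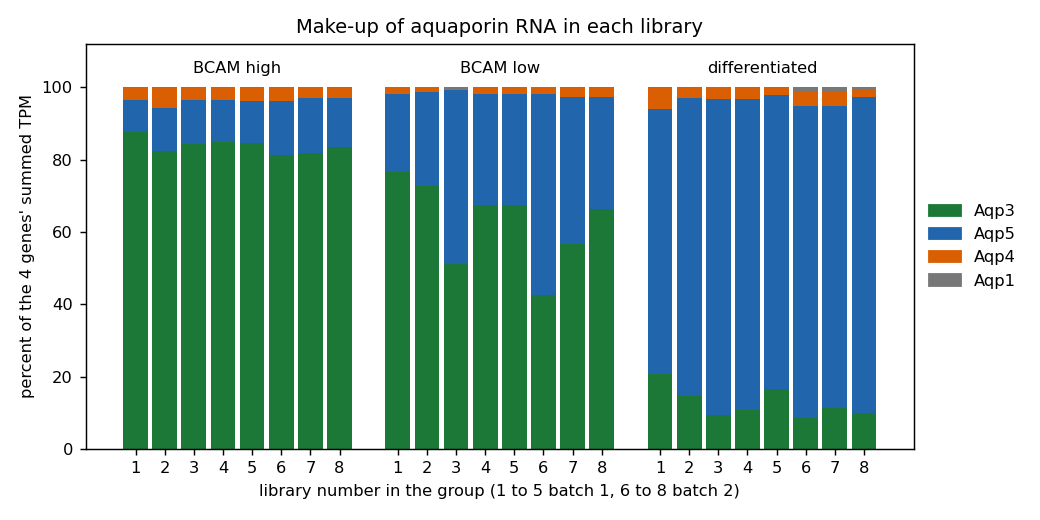
Share of each gene in the summed TPM of the 4 aquaporins, in percent, for every library, with library numbers 1 to 8 on the x axis within each subset. Aqp3 fills 81.4% to 87.7% of the BCAM high bars and 8.58% to 20.8% of the differentiated bars, and Aqp5 fills most of the rest.

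Levels of Aqp3, Aqp4 and Aqp5 also differed between the batches within a subset. Aqp3 in differentiated cells was 124 to 171 CPM in the 5 libraries of batch 1 and 29.0, 35.6 and 88.9 CPM in those of batch 2. It was 2.83-fold lower in batch 2, log2 -1.50 (SE 0.23, edgeR adjusted p = 3.07e-05), where 20.1% of all tested genes were called. With 1 library left out it ran from -2.18, without differentiated library 8, to -1.21. Aqp5 in differentiated cells was 284 to 1062 CPM in batch 1 and 117 to 515 CPM in batch 2, log2 -1.24 (SE 0.43, edgeR adjusted p = 0.048), and this passed in 6 of 24 fits that each left out 1 library. Leaving out differentiated library 8 moved it to -1.95, and leaving out library 7 to -0.86.

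Aqp4 in BCAM low was 4.12 to 55.1 CPM in batch 1 and 79.8 to 121 CPM in batch 2. It was 2.96-fold higher in batch 2, log2 1.56 (SE 0.49, edgeR adjusted p = 0.0465), where 11.1% of all genes were called, and passed in 6 of 24 fits that each left out 1 library. In BCAM high none of the 4 genes passed the test between batches, where 8.04% of all genes were called, and the Aqp3 difference there was log2 0.07 (SE 0.21).

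Some differences between subsets depended on the batch, as tested with an interaction term in edgeR. The Aqp3 difference of BCAM high from differentiated cells was larger in batch 2 by log2 1.57 (SE 0.30, adjusted p = 0.00102), being 4.01 in batch 1 alone and 5.59 in batch 2 alone, and it was 2.25 without differentiated library 8. For BCAM low against differentiated cells the Aqp3 interaction was 1.23 (SE 0.30, edgeR adjusted p = 0.00754), with 3.71 and 4.95 in the separate batches, and it was 1.91 without differentiated library 8. The Aqp4 interaction of that comparison was 2.88 (SE 0.81, edgeR adjusted p = 0.0259). It no longer passed when BCAM low library 7 or 8 or differentiated library 6 or 7 was left out, with values between 2.61 and 2.94. On log2(TPM + 0.1) in limma neither of these passed, at 1.14 for Aqp3 (adjusted p = 0.132) and 1.91 for Aqp4 (adjusted p = 0.105), and with no filter on low counts Aqp4 did not (2.82, edgeR adjusted p = 0.0593). Those of Aqp5 were 1.71 and 1.78 in the comparisons with differentiated cells and did not pass (edgeR adjusted p = 0.079 and 0.0554). Interactions were called for 8.69% of all genes in the comparison of BCAM high with differentiated cells, 11.4% in that of BCAM low with differentiated cells and 1.06% in that of BCAM high with BCAM low. In the last comparison no member was called.

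**Figure D5:**
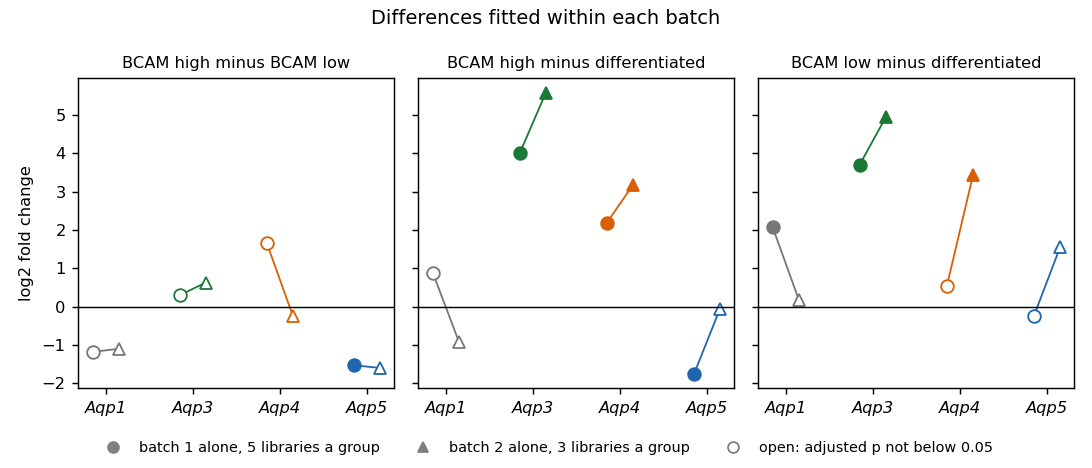
Log2 fold changes fitted within batch 1 (circles, 5 libraries a group) and within batch 2 (triangles, 3 libraries a group) for the 3 comparisons. Filled symbols passed an adjusted p of 0.05. Aqp3 lies higher in batch 2 in both comparisons with differentiated cells, and Aqp5 moves from -1.76 to -0.05 in the middle panel.

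Of the other 8 mouse aquaporins, all but Aqp11 were rare in these libraries. Aqp8 was listed at 0 counts in all 24 libraries. Mip, the lens channel, had 0 to 4 estimated counts a library, Aqp12 0 to 2, Aqp2, the water channel of the kidney collecting duct, 0 to 7, Aqp6 0 to 12, Aqp9 0 to 10 and Aqp7, an aquaglyceroporin of fat tissue, 0 to 13. Aqp7 lies next to Aqp3, and Aqp2 and Aqp6 lie next to Aqp5, and none of these neighbours passed the filter. Aqp11, an intracellular member of the family, was the only one of the 8 to pass the filter, with 22 to 173 counts a library.

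Aqp11 was higher in batch 2 in both BCAM subsets. In BCAM high it was 6.85 to 12.4 CPM in batch 1 and 31.1 to 45.6 CPM in batch 2, log2 2.04 (SE 0.28, edgeR adjusted p = 1.22e-05). In BCAM low it was 7.90 to 16.4 CPM and 36.3 to 74.2 CPM, log2 2.48 (SE 0.27, edgeR adjusted p = 1.8e-07). Differentiated libraries gave 12.2 to 26.5 CPM in batch 1 and 22.0 to 41.2 CPM in batch 2, log2 0.56 (SE 0.29, edgeR adjusted p = 0.172). No difference in Aqp11 between subsets passed in the fit over both batches, with log2 -0.37, -0.58 and -0.21 for BCAM high against BCAM low, BCAM high against differentiated and BCAM low against differentiated cells (edgeR adjusted p = 0.467, 0.0929 and 0.582). Against differentiated cells Aqp11 was lower in batch 1 alone, by log2 -1.11 in BCAM high (edgeR adjusted p = 0.0027) and -0.96 in BCAM low (edgeR adjusted p = 0.00914). In batch 2 alone BCAM low was higher by 0.96 (edgeR adjusted p = 0.0365), and without differentiated libraries 6 and 7 BCAM high passed at -0.96 (edgeR adjusted p = 0.00197).

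Genes that work with aquaporins were taken from lists and counted by the same edgeR test, beside a median log2 difference over all tested genes of 0.00 between the BCAM subsets and 0.02 in each comparison with differentiated cells. Of all tested genes 7.02% were called between the BCAM subsets. The shares were 41.3% for BCAM high and 33.5% for BCAM low, each against differentiated cells. Water follows salt, and of 20 genes of transepithelial ion transport 16 were tested. Of these, 2 were higher and 9 lower in BCAM high than in differentiated cells (median log2 -1.35), and 1 was higher and 9 lower in BCAM low (median -1.15). Scnn1b, the beta subunit of the epithelial sodium channel, led with log2 -5.22 (SE 0.34) in BCAM high and -5.95 (SE 0.36) in BCAM low. Kcnn4, a calcium-activated potassium channel, was at -3.67 (SE 0.77) and -2.55 (SE 0.70). Kcne3, a potassium channel subunit, was at -3.60 (SE 0.61) in BCAM high, and Slc26a9, a chloride transporter, at -2.64 (SE 0.48) in BCAM low. Between the BCAM subsets 2 genes were lower in BCAM high and none higher (median -0.01): the bicarbonate cotransporter Slc4a4 (-1.21, SE 0.27) and the sodium pump subunit Atp1b1 (-0.64, SE 0.14), both in the direction of Aqp5.

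Aqp3 passes glycerol, and all 16 genes listed for glycerol handling were tested. None was higher and 4 were lower in BCAM high than in BCAM low (median log2 -0.39), where 7.02% of all genes were called. The Aqp3 values pointed the opposite way. The lower genes were led by Gpd1, a glycerol-3-phosphate dehydrogenase (-2.34, SE 0.61), Dgat2, which makes triglyceride (-2.17, SE 0.45), and the Gpd1 relative Gpd1l (-0.87, SE 0.17). Against differentiated cells 3 were higher and 8 lower in BCAM high (median -0.69), and 3 higher and 4 lower in BCAM low (median -0.36), where 41.3% and 33.5% of all genes were called in either direction. Gpd1 was at -6.10 (SE 0.55) and -3.77 (SE 0.46) in these comparisons and Mgll, the monoglyceride lipase that releases glycerol, at -3.57 (SE 0.42) and -3.12 (SE 0.41). Dgat2 was at -2.85 (SE 0.44) in BCAM high, and the phospholipase Pld1 was higher in both BCAM subsets, at 1.88 (SE 0.16) and 1.56 (SE 0.16).

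The list of the osmotic response had 17 genes, of which 16 were tested. In BCAM high 5 were higher and 2 lower than in differentiated cells (median log2 0.12), and in BCAM low 6 were higher and 0 lower (median 0.13), shares of the list near the 41.3% and 33.5% of all genes called. The largest values were those of Slc6a6, the taurine transporter (2.51, SE 0.13, and 2.05, SE 0.13), Lrrc8c, a subunit of volume-regulated anion channels (1.94, SE 0.35, and 1.20, SE 0.36), and Trpv4, an osmotically sensitive cation channel (1.55, SE 0.11, and 1.07, SE 0.11). Lrrc8c in BCAM low was at -0.32 in batch 2 alone. Between the BCAM subsets 2 were higher in BCAM high, Trpv4 (0.48, SE 0.11) and Slc6a6 (0.46, SE 0.12), and 1 was lower, the kinase Stk39 (-1.52, SE 0.39), with a median of 0.13. Of all genes 7.02% were called there.

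Of 11 genes of the dystrophin complex that anchors Aqp4 in other tissues, 10 were tested, and the shares called against differentiated cells were near those of all genes. Between the BCAM subsets 7.02% of all genes were called. Agrn, the extracellular ligand agrin, was the 1 called gene between the BCAM subsets, higher in BCAM high (log2 0.55, SE 0.13, list median 0.09). It was also the 1 gene higher in BCAM high (2.34, SE 0.14) and in BCAM low (1.79, SE 0.13) than in differentiated cells. Lower than in differentiated cells were 3 genes in BCAM high and 2 in BCAM low, led by Sgce, a sarcoglycan (-1.71, SE 0.33, and -1.87, SE 0.34), and Dtna, a dystrobrevin (-1.56, SE 0.27, and -0.80, SE 0.27), with list medians of 0.05 and -0.01. In 2 of 24 fits that left out 1 library the Dtna call in BCAM low was lost. The calls in BCAM high and BCAM low were lost under 3 and 5 of 12 other alternatives.

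Of 18 airway transcription regulators 15 were tested. In BCAM high 7 were higher and 5 lower than in differentiated cells (median log2 0.40), and in BCAM low 8 were higher and 4 lower (median 0.44). Of all tested genes 41.3% and 33.5% were called in these comparisons. Trp63, which marks basal cells, was at 5.66 (SE 0.34) and 4.90 (SE 0.34), in the same direction as Aqp3. Sox9, known from submucosal glands, was at -3.60 (SE 0.38) and -4.11 (SE 0.41), and Foxj1, the regulator of ciliated cells, at -4.26 (SE 0.59) and -1.81 (SE 0.51). Between the BCAM subsets none was higher and 2 were lower in BCAM high, Foxj1 (-2.45, SE 0.60) and Elf3 (-0.41, SE 0.13), with a median of -0.25. Of all genes 7.02% were called there. The Elf3 call was lost in 14 of 24 fits that left out 1 library and under 8 of 12 other alternatives. Leaving out differentiated libraries 6 and 7 moved no count of these lists by more than 2 genes.

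The genes most like each aquaporin were ranked by Pearson's r of log2 CPM over the 24 libraries, a description in which the points share libraries and subsets. For Aqp3 the first 5 of 9716 genes were Abi3bp, Trim29, Perp and Sfn at r = 0.99 and Pkp1 at r = 0.98. Trim29, Perp, Sfn and Pkp1 are known from stratified or basal epithelium. Trim29 had means of 329 ± 25.8, 191 ± 49.7 and 3.85 ± 3.42 CPM (SD, n = 8), given for BCAM high, BCAM low and differentiated libraries in turn. For Aqp5 the first genes were Arl2bp, a second gene listed under Ptp4a1, Krt23 and Abcc1 at r = 0.83 and Ffar4 at r = 0.82. Krt23, a keratin, had 27.7 ± 12.5, 91.5 ± 24.7 and 146 ± 88.9 CPM in the same order (SD, n = 8). For Aqp4 they were Ppil4 (r = 0.87), Il1r2 (0.86), Spop (0.85), and Sgsm3 and Prps1l3 (0.84). Spop, an adaptor of a ubiquitin ligase, had 232 ± 28.9, 172 ± 23.9 and 144 ± 26.4 CPM in that order (SD, n = 8). Aqp1 gave r = 0.72 for Rpl17, 0.64 for Sik2 and Kdm4b, and 0.62 for Vmn2r120 and Maip1, values that rest on 0 to 106 Aqp1 counts and are no finding.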

How the data were processed

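Each of the 24 deposited tables gives, per the file headers, a length, effective length, estimated count and TPM for every transcript. The authors' estimated counts are not normalized; in the deposited TPM values, length and depth are scaled out. The submitters' processing notes name kallisto, Picard and GRCm39, without roles. Read pairs were 38 bp per end. Transcript identifiers without version were matched to GENCODE M21 (GRCm38), which gave names and coordinates: 116374 of 117497 matched, and the rest held 0.317% to 0.595% of counts. Estimated counts were summed per gene and rounded.

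The main test was edgeR 4.0.16 (quasi-likelihood, robust, TMM, R 4.3.3) over 24 libraries with batch as covariate, on 12211 genes kept by its default filter on low counts, called at a Benjamini-Hochberg adjusted p under 0.05. Batch contrasts and interactions came from a second fit, of a mean for each combination of group and batch. The code was checked on simulated counts. CPM use TMM-scaled totals. Alternatives used DESeq2 1.42.0, limma 3.58.1 on log2(TPM + 0.1) and log2(TPM + 1), length offsets, other filters and designs, single batches, and each library left out. Amplified reads carry no molecular identifiers, so floors cover counting error only. Members and lists were chosen with earlier results of these data known. Named genes are the members, other aquaporins, up to 3 called genes per list and comparison with the largest fold change, and 5 genes most like each member with a mean of at least 10 CPM in a group. RefSeq held start regions for 3 of the 4 genes. The summed red cell markers are not reported here.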

Additional observations from a re-analysis of the deposited data

Results flagged for a closer look

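Among the 12 groups of 8 libraries (4 genes in 3 subsets), 3 held a library far from the other 7 by Dixon's test, which chance gives in about 1 of 20 groups. Aqp1 was 0.707 CPM in BCAM high library 7, where the next value was 3.31 CPM. Aqp1 was 24.2 CPM in BCAM low library 3, where the next was 10.1 CPM. Aqp4 was 232 CPM in BCAM high library 2, where the next was 119 CPM.

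A further 5 results were differences between subsets that changed between the batches by an interaction term in edgeR. For Aqp3 the change was log2 1.57 in BCAM high against differentiated cells and 1.23 in BCAM low against differentiated cells. For Aqp4 it was 2.88 in BCAM low against differentiated cells. Aqp11 gave 1.48 and 1.92 in these comparisons, with adjusted p = 0.018 and 0.00149 in edgeR. The first Aqp11 value did not pass without BCAM high library 7 or differentiated library 6 or 7, at 1.31 to 1.39. On log2(TPM + 0.1) in limma neither Aqp11 value passed, at 1.05 and 1.39 (adjusted p = 0.384 and 0.164).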

How the results depend on the processing

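The Aqp3 differences from differentiated cells and the Aqp4 difference of BCAM high from differentiated cells kept their direction and passed under every alternative run. Scaling by TPM raised the median difference of all tested genes by log2 0.26 (BCAM high minus BCAM low), 0.73 (BCAM high minus differentiated) and 0.46 (BCAM low minus differentiated), against the count fit. With limma on log2(TPM + 0.1) and log2(TPM + 1), Aqp4 was at 1.60 and 1.54 between the BCAM subsets, Aqp5 at -0.15 and -0.16 in BCAM high against differentiated cells and 1.04 under both in BCAM low, and 7688 and 7713 genes were called between BCAM high and differentiated cells. Relative to the TPM median, the Aqp5 values of the 3 comparisons were -1.46, -0.91 and 0.56. Aqp11 turned to 0.20 and 0.17 between the BCAM subsets and 0.19 under both in BCAM high against differentiated cells, and to 0.02 with a pseudocount of 1 in BCAM low. With a pseudocount of 0.1, the interaction between the BCAM subsets was -0.08 for Aqp1 and 0.22 for Aqp5. Length offsets gave Aqp4 1.13 between the BCAM subsets and 0.83 in BCAM low against differentiated cells.

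Without a batch term 545 genes were called between the BCAM subsets, Aqp1 in BCAM high against differentiated cells was -0.01 and Aqp11 in BCAM low 0.21. In batch 1 alone, BCAM low against differentiated cells gave Aqp1 2.07, Aqp4 0.54 and Aqp5 -0.24. In batch 2 alone, Aqp4 and Aqp5 between the BCAM subsets were -0.25 and -1.60 with 543 genes called. BCAM high against differentiated cells then gave Aqp1 -0.91, Aqp5 -0.05 and Aqp11 0.36, and BCAM low against differentiated cells gave Aqp11 0.96 and Lrrc8c -0.32 with 2221 genes called. With only the 2 BCAM subsets fitted, Aqp3 was 0.41 and 1297 genes were called. Aqp1 in BCAM low against differentiated cells had no value in a fit of those 2 subsets, where it failed the filter. Without differentiated libraries 6 and 7, an alternative chosen after the data had been seen, Aqp3 between the BCAM subsets was 0.43, and Aqp4 and Aqp5 in BCAM low against differentiated cells were 1.24 and -0.06. The cause of these changes was not tested. Of the calls of named list genes, all 11 between the BCAM subsets, 3 of 15 in BCAM high against differentiated cells and 4 of 15 in BCAM low against differentiated cells were lost under at least 1 of these alternatives.

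Leaving out each library in turn, Aqp1 ran from -0.16 to 0.23 in BCAM high against differentiated cells, from 0.65 to 1.46 in BCAM low against differentiated cells, from -0.72 to 0.19 between batches in BCAM high and from -0.81 to 0.61 in BCAM low, and its interaction between the BCAM subsets from -0.86 to 0.55. The Aqp4 batch difference in BCAM high ran from -0.59 to 0.12 and the Aqp5 interaction between the BCAM subsets from -0.32 to 0.26. The replicate numbers did not meet the rule for pairing, since same-numbered libraries had correlated deviations of 0.03 to 0.18, with 7 of 24 pairs over 0.1, although 23 of 24 libraries correlated best with their own number. A fit with the replicate number as a block gave 864, 5129 and 4136 called genes against 857, 5044 and 4086, and changed no call of the 4 genes between subsets, with Aqp5 at -1.50 between the BCAM subsets, Aqp3 at 4.58 and Aqp4 at 2.34 in BCAM high against differentiated cells and Aqp4 at 1.57 in BCAM low against differentiated cells. Depth limits Aqp1, with 0 to 106 counts a library, and the Aqp4 transcript shares in differentiated cells.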
